A study of Rattus norvegicus with 20 samples.

Results

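The glycolytic enzymes of skeletal muscle were followed as 10 genes: Pfkm, Pfkl, Pfkp, Aldoa, Tpi1, Pgk1, Pgam2, Eno3, Pkm and Ldha. A probe set was taken when the platform annotation gave it one of these symbols and no other. This gave 12 of the 8799 probe sets, for 8 of the 10 genes. Pfkm and Pfkp had 2 each, Pgk1 had 3, and Pfkl, Aldoa, Pgam2, Eno3 and Pkm had 1 each. Tpi1 and Ldha each had 1 probe set that the annotation shares with other genes, so neither is described. RNA came from rear-leg muscle of rats in 4 groups of 5 arrays: diabetic rats given vanadyl sulfate, untreated diabetic rats, normal rats given vanadyl sulfate, and untreated normal rats. Vanadyl sulfate is a vanadium salt with insulin-like actions. The sources used here give no strain, age, vanadyl dose, named leg muscle or way in which diabetes was produced. Nothing in them says that replicates came from separate animals, so p-values measure only the spread between these samples, which may be technical. Each array gave 1 signal per probe set, on a linear scale with no detection call.

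Glycolysis splits glucose into pyruvate and yields ATP without oxygen, and fast muscle fibres rely on it during short bursts of work. Phosphofructokinase is its main control step and exists as a muscle (Pfkm), a liver (Pfkl) and a platelet (Pfkp) subunit. Aldolase A (Aldoa) then cuts the 6-carbon sugar, and phosphoglycerate kinase (Pgk1), the muscle phosphoglycerate mutase (Pgam2), the muscle enolase (Eno3) and pyruvate kinase (Pkm) carry the fragments to pyruvate. Insulin promotes glucose entry into muscle and the use of glucose there.

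Promoters of 4 genes on which the results below turn are shown because 3 of them (Pgam2, Eno3 and Pkm) varied together across arrays, while Pfkp did not vary with them. The sequences are RefSeq's on build GRCr8, each running 5′ to 3′ from 250 bases before to 50 bases after a gene's start. RefSeq's table held a promoter for 7 of the 8 genes described. Capitals mark matches on either strand to the E-box CAGCTG, the TATA box TATAAA or the GC box GGGCGG, none of which overlapped another here.
Pgam2, chr14:84897825-84898124, minus strand: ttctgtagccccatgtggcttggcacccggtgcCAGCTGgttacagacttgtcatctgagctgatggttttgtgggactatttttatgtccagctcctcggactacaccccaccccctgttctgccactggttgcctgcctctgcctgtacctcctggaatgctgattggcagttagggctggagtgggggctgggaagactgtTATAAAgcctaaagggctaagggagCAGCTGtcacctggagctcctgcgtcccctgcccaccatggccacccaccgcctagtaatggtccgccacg
Eno3, chr10:55868936-55869235, plus strand: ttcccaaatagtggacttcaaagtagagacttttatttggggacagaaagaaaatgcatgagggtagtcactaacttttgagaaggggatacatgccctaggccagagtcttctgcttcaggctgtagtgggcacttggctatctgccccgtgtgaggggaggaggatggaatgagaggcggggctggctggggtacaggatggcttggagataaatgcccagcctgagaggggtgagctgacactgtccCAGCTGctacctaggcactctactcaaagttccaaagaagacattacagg
Pkm, chr8:68953385-68953684, plus strand: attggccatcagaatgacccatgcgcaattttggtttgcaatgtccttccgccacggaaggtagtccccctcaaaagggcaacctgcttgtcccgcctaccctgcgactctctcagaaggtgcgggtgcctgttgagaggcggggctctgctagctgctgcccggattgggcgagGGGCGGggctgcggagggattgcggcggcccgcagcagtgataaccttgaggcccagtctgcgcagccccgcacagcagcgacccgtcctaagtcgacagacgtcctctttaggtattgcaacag
Pfkp, chr17:68639563-68639862, plus strand: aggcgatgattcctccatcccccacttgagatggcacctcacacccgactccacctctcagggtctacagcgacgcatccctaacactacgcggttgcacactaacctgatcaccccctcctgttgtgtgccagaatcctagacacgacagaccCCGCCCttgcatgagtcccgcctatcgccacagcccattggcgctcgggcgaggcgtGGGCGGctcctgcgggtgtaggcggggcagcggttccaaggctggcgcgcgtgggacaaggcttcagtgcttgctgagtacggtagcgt
The Pgam2 window held the E-box 2 times and the TATA box 1 time, and the Eno3 window held the E-box 1 time. The Pkm window held 1 GC box and the Pfkp window 2. Of all 33469 rat promoter windows of this length, 15.1% held the E-box, 14.2% the TATA box and 33.1% the GC box. The HIF core ACGTG (19.3% of all windows) and the MEF2 consensus (3.29%) were also searched, with 0 matches in any window shown. A match is a description of letters and says nothing of whether a factor binds there.

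The muscle origin of the samples was checked first. The 11 tested fast fibre markers of 13 listed, among them Myh4, Tnnt3 and Pvalb, had signals of 1055.6 or more in every array, and the 8 tested slow fibre markers of 10 had 294.2 or more. RNA quality differed within groups. Gapdh control probe sets read the 3′ and 5′ ends of 1 transcript, and the log2 of their ratio is high when the 5′ end is lost. It was 3.94 in treated diabetic replicate 1, 2.90 in normal replicate 1 and 2.91 in normal replicate 3. No other array exceeded 1.31. The beta-actin ratio ran from 1.20 to 2.61 in treated diabetic, 0.93 to 2.52 in diabetic, 0.48 to 2.10 in treated normal and 0.58 to 3.01 in normal muscle. Treated diabetic replicate 5 stood apart in another way: 343 probe sets lay at least 2-fold below every other array, against at most 65 for any other array. Gapdh, itself a glycolytic enzyme, had a 3′ control signal of 7421.3 in that array and 81301.9 to 376168.8 in the other 19. Values with these arrays left out are given beside many of the member values below, though not all.

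By limma, none of the 10 tested member probe sets passed an adjusted p of 0.05 in any of the 6 comparisons. In diabetic against normal muscle 1.83% of all 6027 tested probe sets passed, and 3 members had an unadjusted p under 0.05, where 16.7% of all probe sets did. In treated diabetic against diabetic muscle 0.498% of all passed, and 6 members had an unadjusted p under 0.05, against 16.3% of all. In treated normal against normal muscle these values were 0.0664% of all passing and 2 members, against 9.23% of all, at the unadjusted level. The interaction (how far the vanadyl difference of diabetic rats exceeds that of normal rats) passed for 0.166% of all probe sets, and 5 members had an unadjusted p under 0.05, against 13.3% of all. Groups did not overlap for 2 members in diabetic against normal muscle (5.09% of all probe sets), 1 in treated diabetic against diabetic (4.45%), 0 in treated normal against normal (1.84%), 0 in treated diabetic against normal (0.68%) and 1 in treated diabetic against treated normal muscle (3.22%). The other 2 member probe sets, L25387_at for Pfkp and M31788_at for Pgk1, were too dim to be tested, lying above the array's 40th percentile in 1 and 3 of the 20 arrays. Differences below are on the scale of log2(signal + 16), with standard errors (SE) and n = 5 per group.

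**Figure D1:**
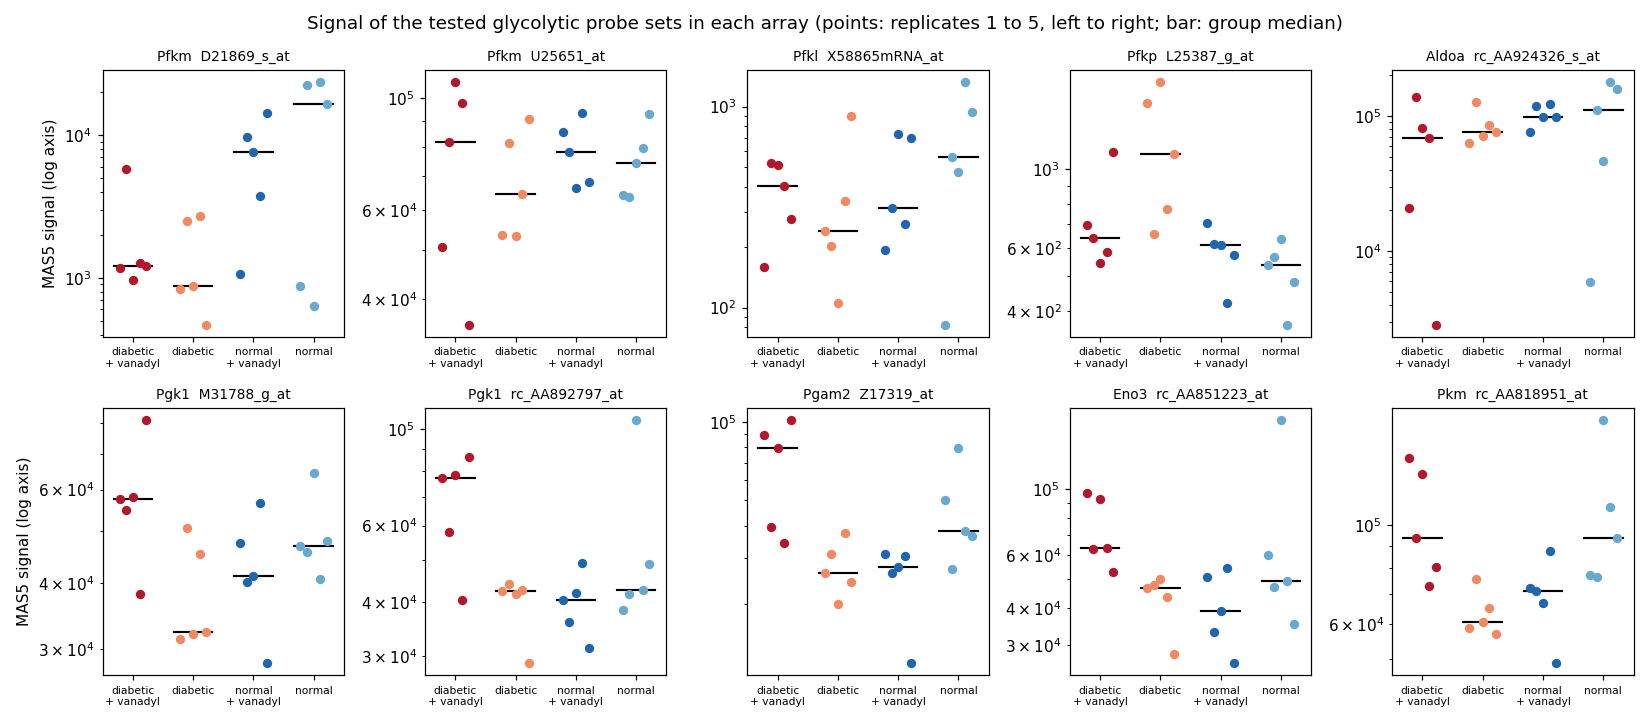
MAS5 signal (log axis) of the 10 tested probe sets in each of the 20 arrays, by group, with points for replicates 1 to 5 from left to right and a bar at the group median. Pgk1, Pgam2, Eno3 and Pkm sit highest in several treated diabetic arrays and in normal replicate 3, Pfkp is highest in diabetic muscle, Pfkm D21869_s_at spreads most within the normal and treated normal groups (37.4-fold and 13.3-fold), and Aldoa within the treated diabetic and normal groups (48.7-fold and 30.5-fold).

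Pfkp, the platelet-type subunit of phosphofructokinase, gave the smallest adjusted p of any member in any comparison. Its probe set L25387_g_at had signals of 1538.5, 656.3, 1764.8, 773.3 and 1103.5 in diabetic muscle, against 539.3, 567.9, 638.9, 365.5 and 481.9 in normal muscle. All 5 diabetic values lay above all 5 normal ones, with replicates 1 and 3 highest. The log2 difference was 1.07 ± 0.28, a 2.10-fold ratio with a 95% interval of 0.49 to 1.65 on the log2 scale (adjusted p = 0.0517). That value sits beside the threshold: the probe set passed without the 3 arrays of high Gapdh ratio (1.20, adjusted p = 0.0396) and did not with both 3′/5′ ratios as covariates (0.94, adjusted p = 0.179). Of all tested probe sets, 3.33% were higher in diabetic than normal muscle with no overlap between the groups.

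Treated diabetic muscle had Pfkp signals of 699.4, 640.9, 545.5, 587 and 1120.9. Replicates 1 and 5 lay within the diabetic range and the other 3 below it. The log2 difference of treated diabetic from diabetic muscle was -0.64 ± 0.28 (adjusted p = 0.264), and -0.81 without replicate 5 (adjusted p = 0.222). Treated normal muscle ranged from 419.7 to 705.1, and its log2 difference from normal muscle was 0.17 ± 0.28 (adjusted p = 0.869). The interaction of -0.81 ± 0.39 did not pass (adjusted p = 0.386). The dim probe set L25387_at had medians of 144.8, 225.4, 69.6 and 58.7 in treated diabetic, diabetic, treated normal and normal muscle.

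Marker lists of macrophages and leukocytes and of adipocytes were, like Pfkp, highest in diabetic muscle, though not array by array. Of 15 macrophage and leukocyte markers listed, 10 were tested. By limma at an adjusted p of 0.05, 7 were higher and 0 lower in diabetic than normal muscle (1.83% of all probe sets passed). With treatment in diabetic rats 3 were lower and 0 higher (0.498% of all passed). No tested marker was at 0 in any array. Their mean log2 difference from the normal mean was 2.51, 1.03, 2.41, 1.34 and 0.66 in diabetic replicates 1 to 5, so it too was highest in replicates 1 and 3, and ran from -0.26 to 0.41 in treated diabetic, 0.12 to 0.43 in treated normal and -0.27 to 0.31 in normal arrays. The summed signal of the 10 ran from 14322.7 to 19665.9, 26982.4 to 102246, 15911.7 to 20003.9 and 9674.7 to 18411.8 in the same groups. Of the 6 tested adipocyte markers of 8 listed, 3 passed as higher in diabetic than normal muscle (1.83% of all passed). With treatment in diabetic rats 1 passed as lower (0.498% of all passed), and none was at 0. Their mean log2 difference from the normal mean ran from 0.20 to 0.58 in treated diabetic, 0.81 to 1.45 in diabetic, -0.08 to 0.30 in treated normal and -0.37 to 0.38 in normal arrays, again highest in diabetic replicates 1 and 3. Their summed signal ran from 23443.9 to 34629, 32380.1 to 53068.1, 19068.1 to 24870.8 and 15016.8 to 26827 in these groups. The beta-actin ratio was also highest among diabetic arrays in replicates 1 and 3, at 2.31 and 2.52. Over all 20 arrays Pfkp had a Pearson correlation of 0.502 with that ratio (permutation p = 0.0226, adjusted p = 0.0411; Spearman rho = 0.459, permutation p = 0.044, adjusted p = 0.088), 0.681 without the 2 most distant arrays and 0.487 within groups. The part of any of these in the Pfkp values was not tested. In whole muscle, more cells of a type and more RNA per cell cannot be told apart.

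Pfkm, the subunit that makes up the muscle enzyme, was read by 2 probe sets that did not behave alike. U25651_at had signals of 53518.9, 81484.9, 53342, 64501.2 and 91140.7 in diabetic muscle, against 64470.3, 63685.3, 74537.2, 79750.2 and 92923.3 in normal muscle. The groups overlapped, and the log2 difference was -0.15 ± 0.28, with a 95% interval of -0.72 to 0.43 (adjusted p = 0.835). Its difference was 0.04 ± 0.28 for treated diabetic against diabetic muscle (interval -0.54 to 0.62) and 0.07 ± 0.28 for treated normal against normal muscle (interval -0.51 to 0.64). Without the 3 arrays of high Gapdh ratio and treated diabetic replicate 5, the first of these was 0.50 ± 0.24 (adjusted p = 0.438). Among the treated diabetic arrays this probe set ranged 3.03-fold, with replicate 5 lowest at 35579.1 and replicate 3 highest at 107875.6.

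The second Pfkm probe set, D21869_s_at, had signals of 834, 2491.2, 873.2, 2702.2 and 469.7 in diabetic muscle, against 871.7, 22395.7, 631.8, 23619.2 and 16630.7 in normal muscle. Normal replicates 1 and 3, with the high Gapdh ratios, lay within the diabetic range and the other 3 normal arrays far above it, a 37.4-fold range within 1 group. The log2 difference was -2.20 ± 0.96 (adjusted p = 0.250). Without the 3 arrays of high Gapdh ratio it was -4.10 (adjusted p = 0.00597). The diabetic arrays of that fit had beta-actin ratios of 0.93 to 2.52, against 0.58 to 0.63 in the 3 normal arrays left, so group and ratio cannot be told apart there. With both ratios as covariates and all arrays the difference was -1.83 (adjusted p = 0.210). In treated normal muscle the signals ran from 1070.1 in replicate 1 to 14276.4 in replicate 5, and in treated diabetic muscle from 969.6 to 5807.4.

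Over the 20 arrays the log2 signal of Pfkm D21869_s_at ran against the beta-actin 3′/5′ ratio (Pearson r = -0.844, permutation p = 2e-05, adjusted p = 0.0004; Spearman rho = -0.8, permutation p = 6e-05, adjusted p = 0.0003). It stood at -0.867 once the 2 most distant arrays on the ratio axis were dropped and at -0.831 within groups. Pfkl and Aldoa had Pearson correlations with this ratio of -0.697 and -0.66 (permutation p = 0.00071 and 0.00038, adjusted p = 0.00473 and 0.0038) and Spearman values of -0.728 and -0.824 (permutation p = 0.00039 and 4e-05, adjusted p = 0.00156 and 0.0003). Dropping the 2 most distant arrays, these Pearson values were -0.571 and -0.502, and with group means removed -0.722 and -0.649. Pkm gave 0.0472 (permutation p = 0.843) and the other Pfkm probe set -0.304 (permutation p = 0.193, adjusted p = 0.241). Eno3 gave a Pearson value of 0.4 (permutation p = 0.0779, adjusted p = 0.13) and a Spearman value of 0.558 (permutation p = 0.0118, adjusted p = 0.0295), with Pearson 0.319 after dropping the 2 most distant arrays. These adjusted values cover 20 relations, for 10 probe sets and 2 ratios.

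The Gapdh ratio splits the arrays into separate clusters, so its relations were computed within the 17 arrays of low ratio, adjusted over 10 probe sets. For the later enzymes the Pearson values were positive: 0.466 for Eno3, 0.473 for Pgam2, 0.515 and 0.229 for the Pgk1 probe sets and 0.0491 for Pkm (permutation, adjusted p = 0.0854, 0.0854, 0.0642, 0.422 and 0.852). Their Spearman values were 0.549, 0.23, 0.302, 0.223 and 0.0466, of which that of Eno3 passed (permutation, adjusted p = 0.0472), and without the 2 most distant arrays the Pearson values were 0.523, 0.457, 0.367, 0.066 and 0.159. Pfkp had 0.678 (permutation, adjusted p = 0.011), Aldoa -0.693 (adjusted p = 0.0004) and Pfkm D21869_s_at -0.806 (adjusted p = 0.0006). Spearman values for these were 0.561, -0.676 and -0.858 (permutation, adjusted p = 0.0472, 0.0179 and 0.0002), and Pearson values without the 2 most distant arrays 0.493, -0.682 and -0.844. Pfkl had a Pearson value of -0.547 (permutation, adjusted p = 0.0578), or -0.386 without the 2 most distant arrays. Its Spearman value of -0.591 passed (permutation, adjusted p = 0.0472). Pfkm U25651_at had Pearson and Spearman values of -0.384 and -0.00735 (permutation, adjusted p = 0.16 and 0.982), and Pearson 0.256 without the 2 most distant arrays. Of the 3 arrays of high ratio, treated diabetic replicate 1 and normal replicate 3 held the highest Eno3 and Pkm signals of their groups. The part of RNA quality in the values of any member was not tested beyond the fits with ratio covariates.

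**Figure D2:**
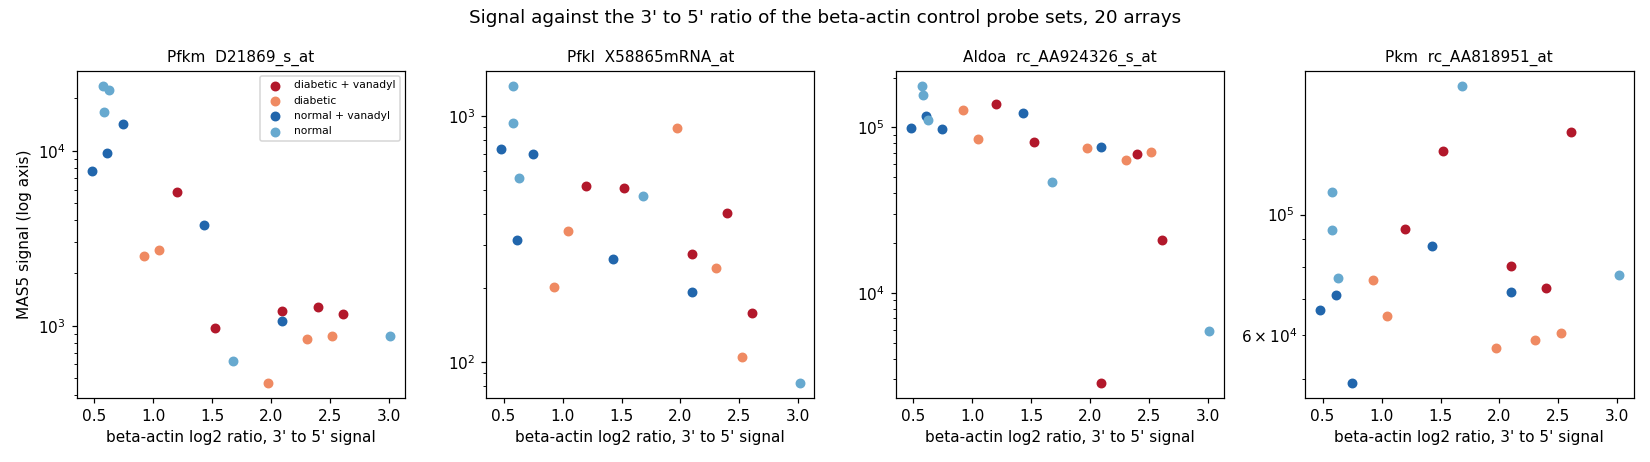
MAS5 signal (log axis) of 4 probe sets against the beta-actin control ratio (log2, 3′ over 5′ end), 1 point per array and 1 colour per group. Pfkm D21869_s_at, Pfkl and Aldoa are lower where the ratio is high (r = -0.844, -0.697 and -0.66), while Pkm shows no such slope (r = 0.0472).

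Pfkl, the liver-type phosphofructokinase subunit, was dim, lying above the 40th percentile in 12 of 20 arrays. Its signals were 241.1, 202.8, 104.9, 340.9 and 895.2 in diabetic muscle, against 82.3, 558.8, 473.9, 1326.8 and 936.2 in normal muscle. Normal replicate 1 was the lowest of all 20 arrays, and the groups overlapped. Its difference was -0.80 ± 0.61 (adjusted p = 0.525), or -1.62 without the 3 arrays of high Gapdh ratio (adjusted p = 0.0767). The treatment differences were 0.29 ± 0.61 in diabetic and -0.36 ± 0.61 in normal rats, each smaller than its SE with all arrays. Without the 4 arrays that stood apart they were 0.74 ± 0.55 (adjusted p = 0.642) and -1.18 ± 0.55 (adjusted p = 0.291).

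Aldoa was a member whose group means depended strongly on single arrays. Its signals in treated diabetic muscle were 20833, 138819.8, 81500.3, 69159.2 and 2848.8, against 63426.6, 127771.5, 71052.2, 85066.8 and 75510 in diabetic muscle. Replicates 1 and 5 lay below every diabetic array, and the other 3 lay within the diabetic spread or just above it. The log2 difference of -1.26 ± 0.88 (adjusted p = 0.483) was -0.37 without replicate 5 (adjusted p = 0.857), and 0.17 without all 4 arrays that stood apart (adjusted p = 0.853).

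Treated normal muscle was even for Aldoa, at 76380.8 to 121495.5. Normal muscle had 5858.7 and 46500.9 in replicates 1 and 3 and 110756.1 to 178753.9 in the others. The log2 difference of diabetic from normal muscle was 0.42 ± 0.88 (adjusted p = 0.851) with all arrays and -0.83 with the 3 arrays of high Gapdh ratio left out (adjusted p = 0.568), the first smaller than its SE and the second about as large as its SE of 0.82. Leaving out normal replicate 1 alone gave -0.42, and normal replicate 3 alone 0.33. Like D21869_s_at, the Aldoa probe set carries the suffix of those that can match related transcripts, so it may read more than 1 transcript.

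The later enzymes, Pgk1, Pgam2, Eno3 and Pkm, had lower group means in diabetic than in normal muscle and higher group means in treated diabetic than in diabetic muscle, with none past the test. Pgam2 is the muscle phosphoglycerate mutase. Its signals were 89192.8, 39645.1, 79527.8, 34148.5 and 102029.1 in treated diabetic muscle, against 26166.5, 30991.3, 19876.7, 37535.7 and 24251.6 in diabetic muscle. Replicates 1, 3 and 5 of the treated group lay far above every diabetic array, while replicate 4 lay within their range. The log2 difference was 1.21 ± 0.36, a 2.32-fold ratio (95% interval 0.46 to 1.96, adjusted p = 0.122). It was 1.04 without replicate 5 (adjusted p = 0.236) and 0.81 without the 4 arrays that stood apart (adjusted p = 0.384).

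In normal rats the Pgam2 values leaned the other way. Signals were 31141.4, 26172, 27580.1, 30666.9 and 11826 in treated normal muscle, against 50247.2, 27107.4, 79973.8, 38258.2 and 36490.6 in normal muscle. The 2 highest normal arrays were replicates 1 and 3, and the groups overlapped only through normal replicate 2. Treatment gave a log2 difference of -0.84 ± 0.36 (adjusted p = 0.513), or -0.48 without the 3 arrays of high Gapdh ratio (adjusted p = 0.617). Diabetic against normal muscle gave -0.67 ± 0.36 (adjusted p = 0.349), or -0.31 with those 3 arrays left out (adjusted p = 0.663). The interaction was 2.06 ± 0.51 (95% interval 1.00 to 3.11, adjusted p = 0.117), and 1.29 without the 4 arrays (adjusted p = 0.243). Treated diabetic and treated normal muscle did not overlap for Pgam2, with a difference of 1.38 ± 0.36 (adjusted p = 0.141), or 0.98 without the 4 arrays (adjusted p = 0.312). In that comparison 1.21% of all probe sets were higher without overlap.

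Eno3, the muscle enolase, had signals of 96868.4, 63149.8, 92569.9, 63485.9 and 52637.3 in treated diabetic muscle, against 46696.4, 47626.4, 49872.3, 43397.4 and 27936.9 in diabetic muscle. The groups did not overlap, which held for 2.37% of all probe sets in this direction. Their log2 difference was 0.76 ± 0.35 (adjusted p = 0.280), and 0.77 without the 4 arrays that stood apart (adjusted p = 0.296). With both 3′/5′ ratios as covariates it was 0.50 ± 0.31 (adjusted p = 0.471). Eno3 in normal muscle ran from 35246.7 to 59863.3 in 4 arrays and was 170279.9 in replicate 3. The diabetic difference from normal was -0.52 ± 0.35 (adjusted p = 0.459) and shrank to -0.03 without the 3 arrays of high Gapdh ratio (adjusted p = 0.956). Treated normal minus normal muscle was -0.63 ± 0.35 for Eno3 (adjusted p = 0.588), or -0.14 on leaving out the same arrays (adjusted p = 0.872). Its interaction was 1.39 ± 0.49 (adjusted p = 0.218), and 0.91 without the 4 arrays that stood apart (adjusted p = 0.292).

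Pkm, pyruvate kinase, had signals of 58834.1, 75715.9, 60602.6, 65096.7 and 56858.3 in diabetic muscle, against 77488.4, 76393.6, 172384.7, 109998.1 and 93593.6 in normal muscle. Every diabetic value lay below every normal one, by a narrow margin between diabetic replicate 2 and normal replicate 2, and 1.76% of all probe sets were lower without overlap. The log2 difference was -0.68 ± 0.25 (95% interval -1.21 to -0.15, adjusted p = 0.172), and -0.55 with the 3 arrays of high Gapdh ratio left out (adjusted p = 0.185). Treated diabetic muscle had 73211 to 141494.6, a difference from diabetic muscle of 0.67 ± 0.25 (adjusted p = 0.221). With both 3′/5′ ratios as covariates that difference was 0.49 ± 0.23 (adjusted p = 0.342), and its lowest value over the other settings was 0.29. Treated normal muscle had 49066.2 to 87656.3, a difference from normal muscle of -0.57 ± 0.25 (adjusted p = 0.516). The interaction was 1.24 ± 0.36 (adjusted p = 0.152), or 1.05 without the 4 arrays that stood apart (adjusted p = 0.176). With both ratios as covariates the interaction was 0.82 (adjusted p = 0.471), and its lowest value over the other settings was 0.50.

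The 2 tested Pgk1 probe sets, both for phosphoglycerate kinase, agreed in direction. For rc_AA892797_at, treated diabetic muscle had 77147, 57912.9, 78551, 40505.1 and 86391.7, against 42474, 43920.3, 41752.4, 42577.1 and 28984.5 in diabetic muscle. Only treated replicate 4 lay within the diabetic range. The log2 differences of treated diabetic from diabetic muscle were 0.73 ± 0.28 for this probe set and 0.59 ± 0.24 for M31788_g_at (adjusted p = 0.216 and 0.247). Without the 4 arrays that stood apart they were 0.53 and 0.40 (adjusted p = 0.423 and 0.573). For diabetic against normal muscle both were -0.37 (SE 0.28 and 0.24, adjusted p = 0.511 and 0.455), and leaving out normal replicate 3 alone gave -0.11 and -0.27. The interactions were 1.11 ± 0.39 and 0.81 ± 0.34 (adjusted p = 0.216 and 0.324), or 0.70 and 0.50 without the 4 arrays that stood apart (adjusted p = 0.343 and 0.551).

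**Figure D3:**
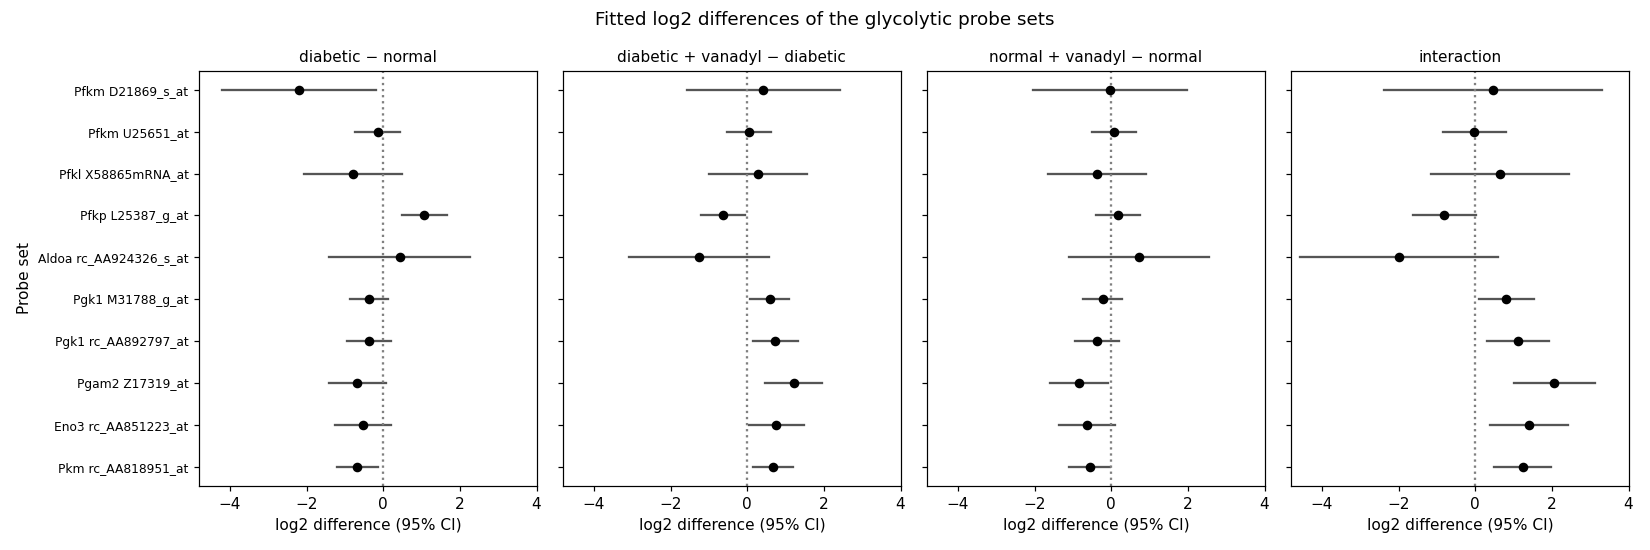
Fitted log2 differences of the 10 tested probe sets (points) with 95% intervals (lines) for diabetic minus normal, treated diabetic minus diabetic, treated normal minus normal, and the interaction. Pgk1, Pgam2, Eno3 and Pkm lie left of 0 for diabetic minus normal and treated normal minus normal and right of 0 in the other panels, and Pfkp lies on the other side in all 4.

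As a list, 8 of the 10 tested probe sets were lower in diabetic than normal muscle, with a median of -0.45 against -0.06 for all tested probe sets, of which 55.1% were lower. In treated diabetic against diabetic muscle 8 were higher, with a median of 0.50 against 0.08 for all, of which 43.9% were lower. In treated normal against normal muscle 7 were lower, with a median of -0.29 against 0.18 for all, of which 33.3% were lower. The median interaction was 0.73 against -0.13 for all. The first and second of these comparisons share the diabetic arrays and the interaction uses all groups, so their signs are not independent of each other. Nor are the probe sets independent, since those of Pgk1, Pgam2, Eno3 and Pkm varied together within groups.

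Treated diabetic against untreated normal muscle gave a median of 0.10 over the members, 5 higher and 5 lower. None passed, nor did any of the 6027 probe sets (0%), and 0 members had an unadjusted p under 0.05, where 12.8% of all did. The log2 differences were 0.54 ± 0.36 for Pgam2, 0.24 ± 0.35 for Eno3, -0.01 ± 0.25 for Pkm and 0.43 ± 0.28 for Pfkp. Eno3 had 0.61 without normal replicate 3 (adjusted p = 0.239) and 0.73 without the 4 arrays that stood apart (adjusted p = 0.216); Pgam2, Pkm and Pfkp had 0.50, 0.06 and 0.33 without those 4. Pfkm D21869_s_at had -1.78 ± 0.96 (adjusted p = 0.435), and -3.57 with the 3 arrays of high Gapdh ratio left out (adjusted p = 0.0300). With treated diabetic replicate 5 left out as well, that value was -3.41 and no longer passed (adjusted p = 0.0727). The treated diabetic arrays of the -3.57 fit had beta-actin ratios of 1.20 to 2.40, against 0.58 to 0.63 in the 3 normal arrays left. Group and ratio cannot be told apart there. With both ratios as covariates and all arrays the difference was -0.80 ± 0.59 (adjusted p = 0.634). Over the settings, up to 359 of all probe sets passed in this comparison. Between treated diabetic and treated normal muscle 0% of all probe sets passed by limma, and 4 members had an unadjusted p under 0.05, against 17.9% of all. Beside Pgam2, the log2 differences there were 0.74 ± 0.28 for Pgk1 rc_AA892797_at, 0.87 ± 0.35 for Eno3 and 0.56 ± 0.25 for Pkm. Over the other settings these fell to as low as 0.26, 0.43 and -0.06. The mean Gapdh ratio was 1.39 in treated diabetic and 0.19 in treated normal arrays (exact permutation p = 0.0635). The mean beta-actin ratio was 1.965 and 1.07 (exact permutation p = 0.0635). The part of RNA quality in these differences was not tested beyond the fits with ratio covariates.

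Within groups the later enzymes varied as a block. After group means were removed, the 10 pairs among the Pgk1, Pgam2, Eno3 and Pkm probe sets had Pearson correlations of 0.465 to 0.814 over the 20 arrays, and 0.628 to 0.864 before. Pfkm D21869_s_at, Pfkl and Aldoa formed a second set, chosen after its values were seen, with 0.517 to 0.601 within groups. Between the sets the values ran from -0.611 to 0.183. These are descriptions, since all points share arrays, scaling and RNA quality. The largest signal of any probe set, controls included, was 764297.1 in normal replicate 3. It was 367887.6, 265327.4 and 280060.1 in treated diabetic replicates 1, 3 and 5, and at most 199892.3 in every other array. Pgam2 was highest in these arrays of both groups, while Eno3 was lowest of its group in treated diabetic replicate 5. The part of this wider scale in the member values was not tested beyond the fit with quantile normalization.

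**Figure D4:**
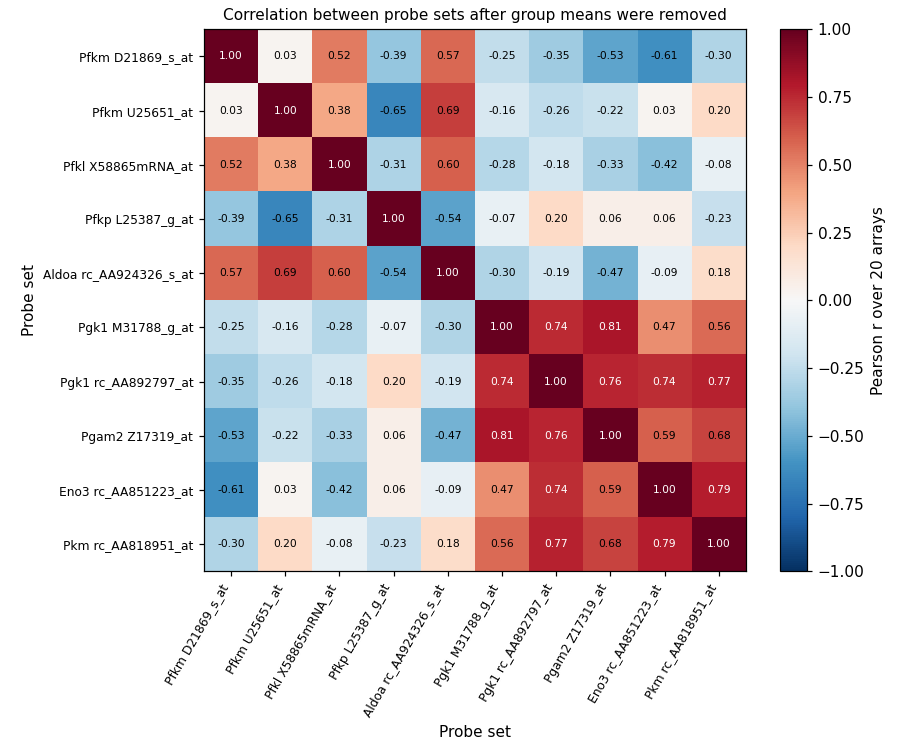
Pearson correlation over 20 arrays between the 10 tested probe sets after group means were removed (both axes list the probe sets, colour and number give r). The 5 probe sets of Pgk1, Pgam2, Eno3 and Pkm form a block of positive values, 0.465 to 0.814.

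The genes whose log2 signals were most like each member over the 20 arrays differed by enzyme. For Pgk1 they were parvalbumin Pvalb (r = 0.923), the fast myosin heavy chain Myh4 (0.915) and the fast troponin Tnni2 (0.912), and for Eno3 the fast troponin Tnnt3 (0.924), Atp5f1c (0.887) and Atp5f1b (0.868), both subunits of ATP synthase. Pkm was nearest to Atp5f1b (0.96), Bin1 (0.932) and Tnnt3 (0.884), and Pgam2 to Dhrs7c (0.944), Atp5f1c (0.909) and Ndufv3 (0.894), a subunit of respiratory complex I. Pfkp was nearest to RT1-Da (0.872), a class II histocompatibility gene, the thrombin receptor F2r (0.867) and the immunoproteasome subunit Psmb9 (0.865). Pfkm U25651_at was nearest to Got2 (0.799), Ldb3 (0.762) and Camk2g (0.736), Pfkl to Nkiras2 (0.84), Usf2 (0.792) and Capn1 (0.79), and Aldoa to Atp9a (0.953), Nbl1 (0.935) and Gnb2 (0.928).

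Fibre type markers also differed between arrays. The mean log2 difference of the 11 tested fast fibre markers from the normal mean was 0.66, -0.18, 0.30, 0.01 and -0.29 in treated diabetic replicates 1 to 5, against -0.44, -0.18, -0.31, -0.53 and -0.44 in diabetic replicates. It ran from -0.69 to -0.18 in treated normal arrays, against -0.52 to 0.94 in normal arrays, where replicate 3 was highest. Of these 11 markers, 0 passed limma's test in any comparison, and their summed signal ran from 963738 to 1769300, 719979 to 985498, 581428 to 932441 and 744568 to 2697960 in treated diabetic, diabetic, treated normal and normal arrays. Treated diabetic replicate 5 had the lowest mean log2 fast fibre value of its group and the highest Pgam2 and Pgk1 signals. By summed signal it was not the lowest, at 1167760 against 963738 in replicate 2 and 999628 in replicate 4.

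Of 8 tested slow fibre markers (10 listed), 1 passed as lower in treated diabetic than diabetic muscle by limma (0.498% of all passed). The median log2 difference over these 8 was -1.53, against 0.68 for the fast list. Their mean log2 difference from the normal mean was 0.44, -1.80, -0.08, -0.80 and -1.99 in treated diabetic replicates 1 to 5, against 0.80, 0.88, 0.91, 0.65 and -0.50 in diabetic replicates. It ran from -1.31 to 0.08 in treated normal arrays and from -0.23 to 0.25 in normal arrays. Their summed signal ran from 57461.5 to 489884, 147891 to 427810, 88920.1 to 273889 and 189971 to 397423 in treated diabetic, diabetic, treated normal and normal arrays, and none was at 0. The part of either fibre list in the values of the glycolytic enzymes was not tested.

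Other genes of the pathway were read from a list of 33 hexokinases, aldolases, enolases, lactate dehydrogenases, regulatory enzymes and sugar or lactate carriers, of which 21 could be tested. In diabetic against normal muscle 0 rose, 1 fell and 20 did not pass (1.83% of all probe sets passed). Slc2a4, the insulin-regulated glucose transporter, was the one that fell, by the probe set of highest mean signal (D28561_s_at, -1.16 ± 0.29, adjusted p = 0.0450). It passed under 10 of 21 other settings, with adjusted p from 0.0102 to 0.143, and its second probe set had -0.42 ± 0.33 (adjusted p = 0.533). The lactate exporter Slc16a3 had -1.21 ± 0.38 (adjusted p = 0.109), the brain-type aldolase Aldoc 1.75 ± 0.49 (adjusted p = 0.0672, with -0.58 ± 0.71 for its second probe set), and the widely expressed glucose transporter Slc2a1 1.17 ± 0.35 (adjusted p = 0.0926). The log2 differences of Ldhd, Slc16a7 and Eno1 were -0.84, 1.19 and -0.56 (adjusted p = 0.150, 0.151 and 0.179).

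With vanadyl sulfate in diabetic rats, 0 of these 21 genes passed in either direction by limma (0.498% of all probe sets), and 9 had an unadjusted p under 0.05 (16.3% of all). Aldoc had -2.06 ± 0.49 (adjusted p = 0.065), with -0.81 ± 0.71 for its second probe set. Both Aldoc probe sets were dim, with mean signals of 358 and 340.88. Ldhb, the heart-type lactate dehydrogenase, had -1.08 ± 0.42 (adjusted p = 0.227), with -0.56 ± 0.37 for its second probe set. In treated normal against normal muscle Ldhb had -0.91 ± 0.42 (adjusted p = 0.524). Slc2a4 had 0.72 ± 0.29 and Slc16a3 0.95 ± 0.38 (both adjusted p = 0.238), Ldhd 0.88 ± 0.30 (adjusted p = 0.177) and Pfkfb4 0.82 ± 0.34 (adjusted p = 0.248). In treated normal against normal muscle 0 passed (0.0664% of all), and 3 had an unadjusted p under 0.05 (9.23% of all). The interaction passed for 0 of the 21 (0.166% of all), with 4 at the unadjusted level (13.3% of all). Aldoc had -2.90 ± 0.69 there (adjusted p = 0.113), with -0.64 ± 1.01 for its second probe set.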

How the data were processed

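The deposited table holds 1 intensity per probe set and array on a linear scale. Per the submitters' processing notes the authors used MAS5, with no version in the sources used here. Means over probe sets, leaving out 2% at both ends, were 2503.4 to 2506.46, so the authors' scaling was kept. Values analysed were log2(signal + 16). Controls (59 probe sets) were not tested. Testing required a probe set to lie above its array's 40th percentile in at least 5 arrays, which left 6027 of 8799. The platform annotation gave 7018 probe sets 1 symbol and 308 several, and did not list 1473. A single limma model (version 3.58.1 in R 4.3.3, lmFit then eBayes) held the group means of all 20 arrays, two-sided, with Benjamini-Hochberg adjustment over all tested probe sets. The precision is limited by 5 arrays per group.

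Relations with the 3′/5′ ratio used 100000 permutations, two-sided. Those with the Gapdh ratio within 17 arrays were added after the data were seen. The fit was tested on simulated data. The named genes were all members, up to 6 other pathway genes with the smallest p beside those that passed, and the 3 genes most like each member. Members and lists were chosen with earlier results of these data known. Alternatives were other pseudocounts, no filter, quantile normalization, a replicate block, array weights, fits of only the groups compared, ratio covariates, and arrays left out. A value counted as turned in direction only where both values exceeded their SE. No genome build is named for these arrays, so only promoter windows carry coordinates.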

Additional observations from a re-analysis of the deposited data

Results flagged for a closer look

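Of 48 groups of 5 arrays (12 member probe sets in 4 groups), 5 held an array whose distance to its nearest neighbour took up more of the group's range than Dixon's 95% limit of 0.71 allows. Chance flags about 5% of groups. Pfkm D21869_s_at in treated diabetic replicate 2, at 5807.4, lay above the other 4, which ran up to 1273. Pgam2 in treated normal replicate 5, at 11826, lay below the other 4, which were 26172 or more. Diabetic replicate 5 was lowest for Pgk1 rc_AA892797_at, at 28984.5, and for Eno3, at 27936.9. Pgk1 rc_AA892797_at in normal replicate 3, at 104963.5, lay above the others, which ran up to 49027.8; this array also had a high Gapdh 3′/5′ ratio (2.91). No reason for these values was tested.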

How the results depend on the processing

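In diabetic against normal muscle the count of member probe sets past the test, 0 with all arrays, was 1 with a pseudocount of 64 and 1 with the replicate block. It was 2 with array weights, 2 with the Gapdh ratio as covariate, 2 without the arrays of high Gapdh ratio and 2 without those and treated diabetic replicate 5, a setting added after the data were seen. It ran from 0 to 1 as each array was left out. The count over all probe sets, 110 with all arrays, moved too, from 32 to 810 over the settings and 24 to 247 with 1 array left out. A member count is therefore no result about the members alone. The member probe sets that passed were Pfkp L25387_g_at (0.94 to 1.20 over these settings, 0.90 to 1.25 with 1 array left out, adjusted p 0.0156 to 0.181) and Pfkm D21869_s_at (-4.10 to -1.83 over these settings, -2.97 to -1.67 with 1 array left out). Pfkp passed without normal replicate 1 (adjusted p = 0.0476) or diabetic replicate 2 (0.0276) or 4 (0.0472). For treated diabetic against normal muscle the member count was 1 without the arrays of high Gapdh ratio (all probe sets: 0 to 359 over the settings). For treated diabetic against treated normal muscle the member count was 0 to 1 with 1 array left out (all probe sets: 0 to 109). This was through Pgam2 without treated diabetic replicate 2 (1.55, adjusted p = 0.0451). The Aldoa interaction, -1.99, was 0.70 without the 4 arrays that stood apart. The cause of these shifts was not tested.

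Over all probe sets the count of 110 in diabetic against normal muscle ran from 32 to 810 over the settings and 24 to 247 with 1 array left out. The count of 30 in treated diabetic against diabetic muscle ran from 11 to 112 and 10 to 54, that of 4 in treated normal against normal from 0 to 35 and 0 to 4, and that of 10 for the interaction from 1 to 40 and 1 to 22. From 0, treated diabetic against normal reached 359 and 3, and treated diabetic against treated normal 38 and 109. Whether replicate numbers pair the arrays was described but not tested. Same-numbered arrays correlated at -0.281 to 0.616 in their deviations from group means. In 8 of 25 pairs an array's own number was its best match among the 5 arrays of the other group. Of the 60 member values, 4 passed under at least 1 setting. The probe set of highest mean signal for each gene also gave a count of 0 in every comparison. The table holds no detection calls, so dim members (Pfkl, L25387_at and M31788_at) have no measured lower limit.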

Other observations

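Plasma protein genes made mostly by liver (Alb, Apoa1, Ttr and Serpina1, 4 of 4 tested) varied widely between arrays of a group. Their summed signal was 44680.4 in treated diabetic replicate 5 and 66976.2 in diabetic replicate 5, against 1168 to 13774.9 in the other arrays. Treated diabetic replicate 5 is the array with the lowest Aldoa and Gapdh signals and the highest Pgam2 signal, and diabetic replicate 5 had the lowest Eno3 signal of its group. Whether these values are linked was not tested.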
